A study of Mus musculus with 18 samples.

Results

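The villus tip genes followed here were Ada, Nt5e, Slc28a2, Klf4, Egfr, Ifrd1, Creb3l3, Pmp22, Krt20 and Gsdmc4. They were chosen by name, being taken as genes that vary along the villus towards its tip. They are 10 of the 47729 genes counted, and all 10 were among the 14675 genes with enough reads to be tested. RNA was sequenced from epithelial cells sorted out of the distal small intestine, the ileum, in 18 libraries from female mice. The animals were virgin (6 libraries), pregnant (6) or pseudopregnant (6), pseudopregnancy being the luteal state of a mouse that carries no embryos. The 3 groups shared the RM1 experimental chow, and the labels name no genotype, allele or drug. The sources used here do not give age, strain, day of pregnancy, the way pseudopregnancy was brought about or the sorting markers. Nothing says that each library is a separate animal, so the p-values below measure the spread between these samples only.

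Enterocytes are born in the crypt, move up the villus within days and are shed at its tip, changing their gene programme on the way. Antimicrobial genes mark the villus base, carriers of amino acids and sugars its middle, apolipoproteins its upper part, and purine breakdown, adhesion and immune-modulating genes its tip. Nt5e (CD73) makes adenosine from AMP at the cell surface, Slc28a2 carries purine nucleosides into the cell, and Ada turns adenosine into inosine. Klf4 is a transcription factor of differentiation, Creb3l3 a membrane-bound factor of the endoplasmic reticulum that drives lipid genes such as Apoa4, and Ifrd1 a transcriptional co-regulator. Egfr is the receptor for EGF and its relatives, Krt20 a keratin of mature enterocytes, Pmp22 a small membrane protein of cell junctions and myelin, and Gsdmc4 a member of the pore-forming gasdermins.

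The upstream sequences of 4 members are shown because Ada, Nt5e and Slc28a2 varied together from library to library while Egfr followed none of the others. Each is the 250 bases before the RefSeq transcription start in GRCm38.p6, written 5′ to 3′ on the strand of the gene. Capitals mark matches on either strand to the GC box GGGCGG, to CACCC (the core bound by Kruppel-like factors), to AGATAA (the site of GATA factors) and to TTTATG (the site of CDX factors). Ada is at chr2:163750240-163750489 on the minus strand, Nt5e at chr9:88327359-88327608 on the plus strand, Slc28a2 at chr2:122426185-122426434 on the plus strand and Egfr at chr11:16751953-16752202 on the plus strand.
Ada: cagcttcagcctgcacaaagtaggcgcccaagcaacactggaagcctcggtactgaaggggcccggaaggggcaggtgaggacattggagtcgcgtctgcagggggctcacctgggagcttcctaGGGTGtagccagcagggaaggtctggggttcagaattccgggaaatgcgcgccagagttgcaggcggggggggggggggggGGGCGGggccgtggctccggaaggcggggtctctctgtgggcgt
Nt5e: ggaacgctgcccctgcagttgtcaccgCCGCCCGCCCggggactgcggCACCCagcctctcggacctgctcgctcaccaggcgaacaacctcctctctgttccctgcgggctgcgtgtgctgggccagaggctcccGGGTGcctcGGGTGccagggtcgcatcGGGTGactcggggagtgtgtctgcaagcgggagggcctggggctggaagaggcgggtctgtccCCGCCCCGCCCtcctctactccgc
Slc28a2: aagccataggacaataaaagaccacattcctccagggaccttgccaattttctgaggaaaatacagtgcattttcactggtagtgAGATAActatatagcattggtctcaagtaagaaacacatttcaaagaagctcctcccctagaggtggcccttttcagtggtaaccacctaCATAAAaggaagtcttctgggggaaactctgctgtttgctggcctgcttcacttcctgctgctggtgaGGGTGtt
Egfr: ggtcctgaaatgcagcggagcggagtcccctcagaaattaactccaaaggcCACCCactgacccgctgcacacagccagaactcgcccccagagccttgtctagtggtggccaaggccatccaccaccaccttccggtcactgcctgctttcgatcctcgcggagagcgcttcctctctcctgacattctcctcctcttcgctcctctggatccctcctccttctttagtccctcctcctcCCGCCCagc

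All 3 purine windows held a CACCC match, 2 of them a GC box and 1 the GATA and CDX matches. The Nt5e window held 4 GC boxes and 4 CACCC matches at 72.0% G and C, and the Ada window 1 of each at 67.2%. The Slc28a2 window, at 45.2% G and C, held no GC box, 1 CACCC, 1 GATA and 1 CDX match. The Egfr window had 1 GC box and 1 CACCC match at 60.8%. Promoters were listed for 9 of the 10 members, Gsdmc4 being the exception. Over these 9, 6 held a GC box and 7 a CACCC match in at least 1 promoter, 3 a GATA match and 1 a CDX match. Among all 32851 mouse promoters of the table the shares were 32.7%, 52.0%, 9.99% and 10.8%. The cyclic AMP element core TGACG was found in 3 members (17.8% of all promoters) and the AP-1 site TGANTCA in 1 (6.75%). Creb3l3 and Pmp22 have several listed starts each, which raises their chance of a match.

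The epithelial markers Epcam, Cdh1, Krt8, Krt18, Krt19 and Vil1 together stood at 10333 to 20862 CPM, the unit for read counts scaled to the size of a library. Library totals were 24.9 to 37.3 M counts. Markers of fibroblasts and endothelium (8 genes) summed to 0.438 to 0.830 CPM in virgin libraries, 0.452 to 1.70 in pregnant and 0.405 to 1.14 in pseudopregnant ones. Leukocyte markers (8 genes) summed to 9.39 to 35.9, 12.05 to 36.1 and 15.9 to 29.3 CPM in the same order. No gene of either list was at 0 in all libraries, but 7 of the 8 stromal and 5 of the 8 leukocyte genes were under the filter on low counts. The part of such cells in the values below was not tested.

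Compared per kilobase of exon, so that genes of different length can be ranked, Krt20 was the most abundant member at 893 ± 212 CPM per kb (SD, n = 18 libraries). Ada (178 ± 140) and Pmp22 (177 ± 77.9) came next and differed by less than their spread. Klf4 (97.9 ± 26.6), Creb3l3 (85.5 ± 29.6) and Gsdmc4 (81.5 ± 48.7) followed, again with neighbours inside each other's SD. Slc28a2 stood at 38.1 ± 25.7, Ifrd1 at 11.4 ± 5.13, Nt5e at 6.03 ± 3.77 and Egfr at 1.18 ± 0.376 CPM per kb. On these lengths the step from Gsdmc4 to Slc28a2 was smaller than the SD of Gsdmc4, and each later step was larger than both SDs beside it. The lengths take in the exons of all transcripts: 4208 bases for Slc28a2, 5858 for Ifrd1 and 8602 for Nt5e. Their longest protein-coding transcripts have 3911, 3378 and 3995 bases, so the size of these steps depends on the length used. The SD is a spread between libraries, and differences between genes were not tested. Slc28a2 and Gsdmc4 also share sequence with copies, as given below.

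The levels of single libraries, given next as CPM without division by length, show how unevenly the members varied. Ada (chr2:163726584-163750239, minus strand) ran from 78.5 through a median of 191 to 1078 CPM in virgin libraries, from 160.2 through 353 to 678 in pregnant and from 102 through 292 to 864 in pseudopregnant ones. Both its lowest library (virgin 6) and its highest (virgin 3) were virgin, and the other groups lay wholly inside that range. Nt5e (chr9:88327197-88372092, plus strand) showed 10.9, 31.9 and 124 CPM as lowest, median and highest virgin values, 23.1, 54.7 and 99.8 in pregnant and 16.1, 41.6 and 105 in pseudopregnant ones. Slc28a2 (chr2:122426477-122461137, plus strand) showed 36.6, 88.2 and 404 CPM in virgin libraries, 63.4, 147 and 257 in pregnant and 55.4, 159.8 and 375 in pseudopregnant ones. All 3 genes of purine handling were highest in virgin 3, pregnant 1 and pseudopregnant 3 within their groups, and virgin 5 or virgin 6 was lowest of all 18.

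Of the 3 regulators, Klf4 (chr4:55527143-55532466, minus strand) varied least, with 182, 279 and 377 CPM in virgin libraries, 177, 283 and 461 in pregnant and 197, 319 and 410.4 in pseudopregnant ones. Creb3l3 (chr10:81084324-81098874, minus strand) showed 140.3, 223 and 455 CPM in virgin libraries, 168, 269 and 388 in pregnant and 175, 207 and 353 in pseudopregnant ones. Ifrd1 (chr12:40201567-40248504, minus strand) showed 37.7, 65.8 and 141 CPM in virgin libraries, 44.5, 66.5 and 103 in pregnant and 31.8, 43.1 and 94.6 in pseudopregnant ones. The pseudopregnant libraries of Ifrd1 split into replicates 1 and 3, at 94.6 and 92.9 CPM, and the other 4, at 46.7 CPM or less. Gm7008, an antisense gene, overlaps 6427 of the 46938 bases that Ifrd1 spans, introns included. How much of this lies in exons, where reads are counted, was not computed. Without the strand setting of the counting, reads of Gm7008 and Ifrd1 in any shared exon cannot be told apart.

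The receptor Egfr (chr11:16752203-16918158, plus strand) had 7.47, 11.8 and 14.3 CPM in virgin libraries, 9.77, 10.97 and 19.2 in pregnant and 10.9, 16.3 and 23.6 in pseudopregnant ones. Pseudopregnant replicates 2, 4 and 5 and pregnant replicate 6 were the 4 highest libraries, at 19.2 to 23.6 CPM, and the remaining 14 were at 14.3 CPM or less. Egfros is antisense to Egfr over 15272 of the 165956 bases that Egfr spans, introns included, with the same limits as for Ifrd1.

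Among the structural genes, Krt20 (chr11:99428403-99438150, minus strand) was the steadiest member, with 1149, 1471 and 2479 CPM in virgin libraries, 1451, 1625 and 2535 in pregnant and 1287, 1760 and 2256 in pseudopregnant ones. Pmp22 (chr11:63128982-63159547, plus strand) showed 195, 384 and 656 CPM in virgin libraries, 294, 510.1 and 650.4 in pregnant and 209, 256 and 802 in pseudopregnant ones. As with Ifrd1, pseudopregnant replicates 1 and 3 stood above the other 4 of their group. Gsdmc4 (chr15:63891264-63912297, minus strand) showed 60.4, 134 and 456 CPM in virgin libraries, 75.8, 156 and 282 in pregnant and 102, 153 and 337 in pseudopregnant ones. Virgin 3, the top library of 5 members, had the least Gsdmc4, and virgin 6, the lowest in Ada, had the most.

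**Figure D1:**
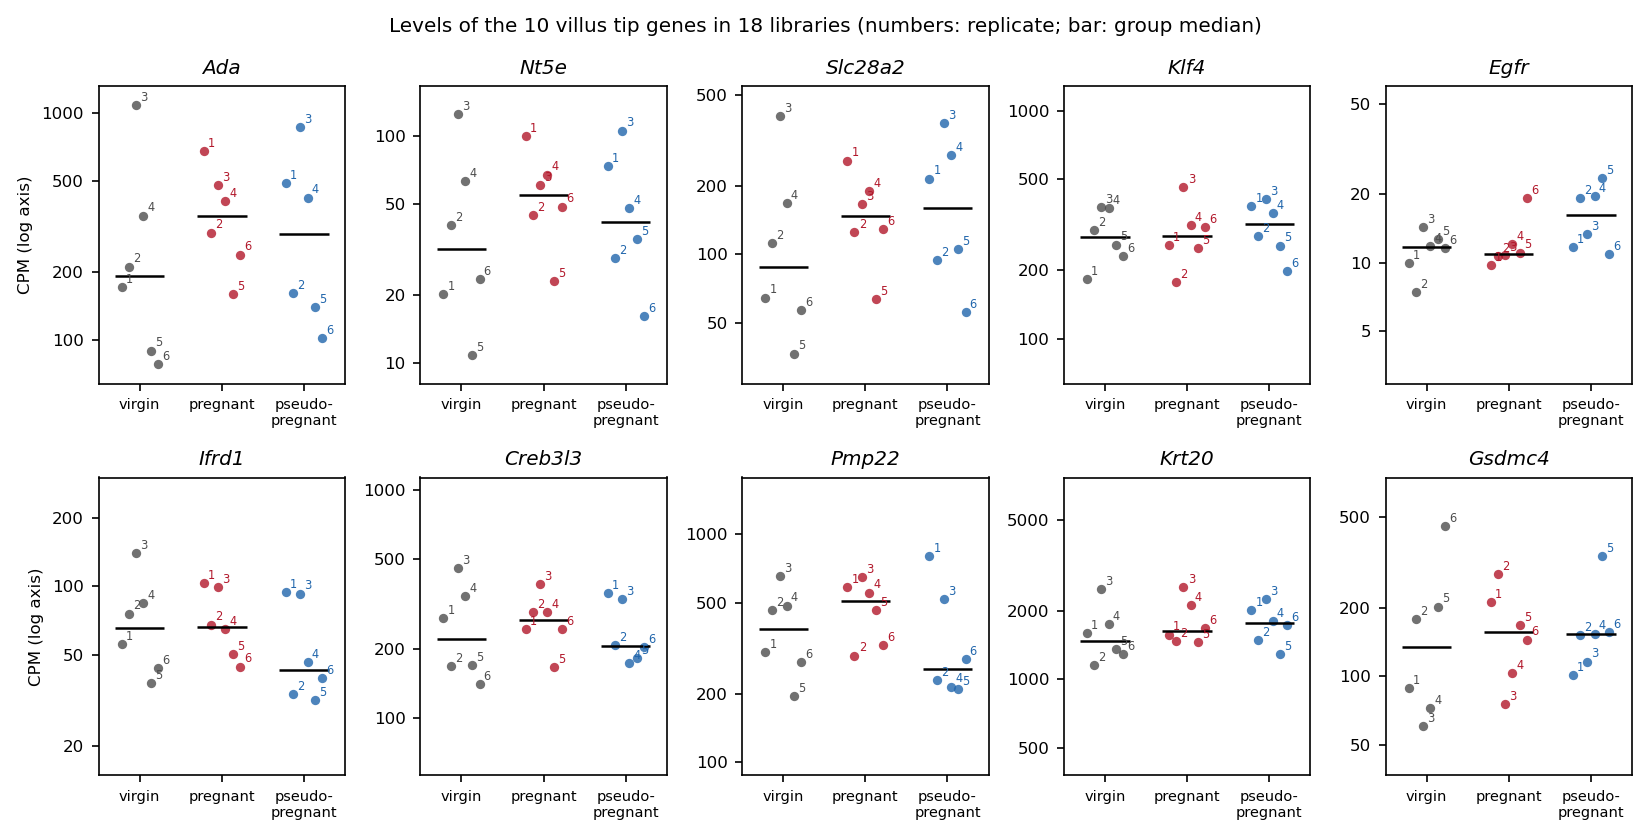
Level of each member in CPM (log axis, each panel spanning the same ratio) by mating group, 1 point per library labelled with its replicate number, bars at group medians. The 3 groups overlap in all 10 panels, and Ada, Nt5e and Slc28a2 span at least 11.04-fold where Krt20 spans 2.21-fold.

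Libraries of the same group differed widely in several members. The highest library exceeded the lowest 13.7-fold for Ada, 11.4-fold for Nt5e, 11.04-fold for Slc28a2 and 7.55-fold for Gsdmc4. For the other 6 the ratio ran from 2.21 (Krt20) to 4.42 (Ifrd1). The within-group SD of log2 CPM was 1.15 for Ada, 1.02 for Slc28a2, 1.002 for Nt5e and 0.83 for Gsdmc4, against a median of 0.36 over all tested genes. Ranked by that SD among tested genes, these 4 stood at percentiles 99.3, 98.7, 98.5 and 95.9, and Krt20 (0.34) at percentile 46.1. Differences between group means made up a median of 6.78% of the variance of the members, compared with 11.8% for all tested genes. This share is not corrected for the number of groups, so it is above 0 also for groups drawn at random. The level that random groups give was not computed. Egfr was the member with the largest such share, 27.9%.

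The first question was whether pregnancy or pseudopregnancy, set against virgin mice, changed the level of these genes. No member was called in any of the 3 contrasts or in the test for any difference, by edgeR's quasi-likelihood test with Benjamini-Hochberg adjustment over 14675 genes at 0.05. The background share of called genes was 0.0% in all 4 of these tests, so the members' count of 0 was that of every tested gene. DESeq2 called 5 genes in pregnant minus virgin and 0 in the other contrasts, limma-voom called 0 in each, and no call by either tool was a member. No member's groups failed to overlap, where this held for 0.0681% of tested genes in pregnant minus virgin, 0.0681% in pseudopregnant minus virgin and 0.0273% in pregnant minus pseudopregnant.

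At an unadjusted p under 0.05 there were 0 members in pregnant minus virgin (3.68% of all genes), 1 in pseudopregnant minus virgin (9.37%) and 0 in pregnant minus pseudopregnant (2.35%). The any-difference test had 1 member at that level (4.56%). The 1 member was Egfr both times. In pregnant minus virgin 8 of the 10 fold changes were above 0, with a median of 0.13 on the log2 scale (all genes -0.0076). The counts were 6 of 10 and a median of 0.13 in pseudopregnant minus virgin (all genes 0.0045), and 6 of 10 and 0.05 in pregnant minus pseudopregnant (all genes -0.0083). The members' median standard error (SE) was 0.34 in each contrast, compared with 0.20 over all genes. The contrasts share libraries, so they are given side by side and are not independent of each other.

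Ada illustrates what that spread allows. Its means were 330.1 ± 379 CPM in virgin libraries, 377 ± 187 in pregnant and 363 ± 293 in pseudopregnant ones (SD, n = 6), and its log2 fold changes from virgin were 0.19 (SE 0.60) and 0.14 (SE 0.60), with edgeR adjusted p of 0.958 and 0.918. Without virgin replicate 3 the same values were 1.06 and 1.01, and Ada still did not pass. Nt5e differed by 0.29 (SE 0.50) in pregnant and 0.12 (SE 0.50) in pseudopregnant from virgin libraries, and Slc28a2 by 0.14 (SE 0.52) and 0.41 (SE 0.52). Leaving out virgin replicate 3 took Nt5e to 0.86 and 0.70 and Slc28a2 to 0.82 and 1.09. With limma-voom, which averages log values, the fold changes from virgin were 0.67 and 0.35 for Ada, 0.62 and 0.32 for Nt5e and 0.50 and 0.59 for Slc28a2 (SE 0.52 to 0.60, adjusted p 0.586 to 0.885). The size of these differences thus depended on the fit and on virgin replicate 3, and none passed in any of them.

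Krt20, the member measured with the smallest SE (0.21), differed by 0.17 in pregnant minus virgin, 0.14 in pseudopregnant minus virgin and 0.04 in pregnant minus pseudopregnant, with edgeR adjusted p of 0.900, 0.743 and 0.976. Klf4 (SE 0.22) differed by 0.04, 0.13 and -0.09, and Creb3l3 (SE 0.27) by 0.07, -0.09 and 0.16, in the same order. In pregnant minus pseudopregnant Ifrd1 and Pmp22 differed by 0.34 (SE 0.34) and 0.35 (SE 0.35), where all 6 pregnant libraries were above the pseudopregnant median for both, with an edgeR adjusted p of 0.920 each. Their values from virgin were -0.03 and 0.27 in pregnant and -0.37 and -0.08 in pseudopregnant mice. Gsdmc4 (SE 0.43) differed by -0.10, -0.06 and -0.05. In bulk RNA a smaller share of tip cells and less RNA of a gene per tip cell cannot be told apart.

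**Figure D2:**
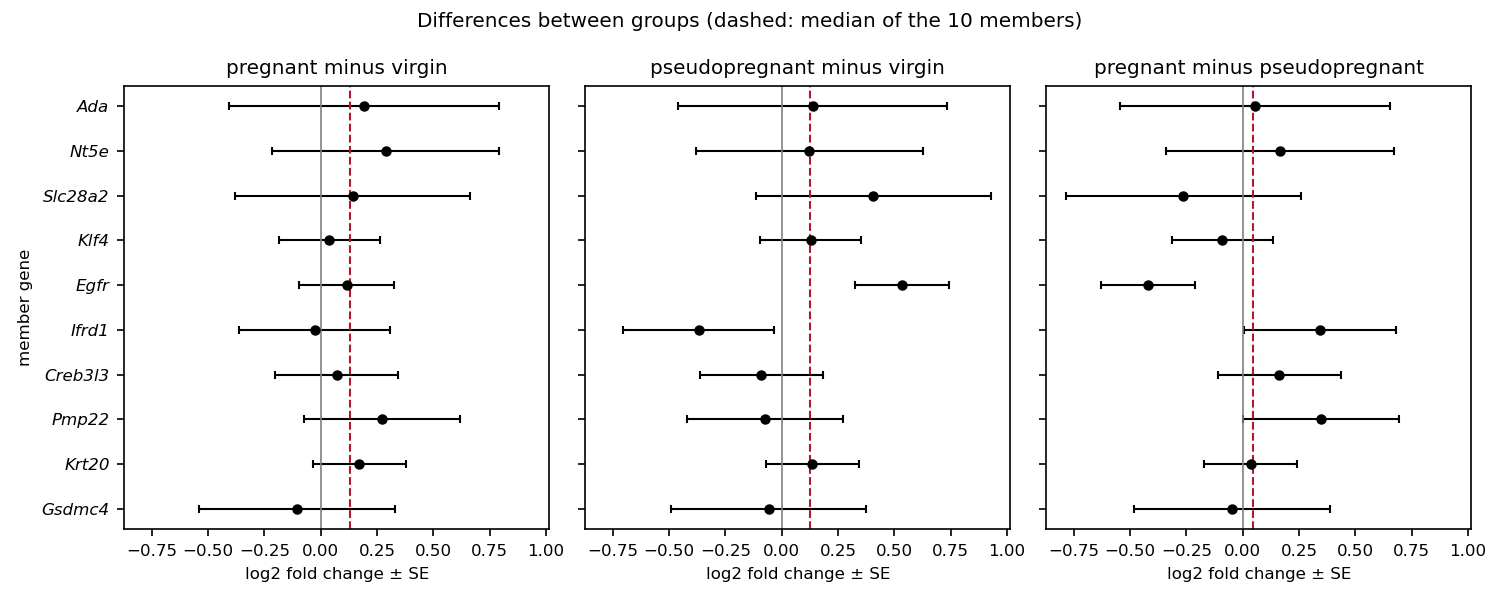
Log2 fold change (edgeR) of each member in the 3 contrasts, points with bars of 1 SE, grey line at 0 and dashed line at the median of the 10 members (0.13, 0.13 and 0.05). Egfr in pseudopregnant minus virgin (0.53, SE 0.21) is farthest from 0 relative to its error, and none passed the adjusted threshold.

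Egfr was 11.3 ± 2.37 CPM in virgin libraries, 12.3 ± 3.47 in pregnant and 16.4 ± 5.14 in pseudopregnant ones (SD, n = 6). It was 1.45-fold higher in pseudopregnant than in virgin libraries (log2 0.53, SE 0.21) at an unadjusted p of 0.0194 and an edgeR adjusted p of 0.515. In pregnant minus pseudopregnant the log2 value was -0.42 (SE 0.21, adjusted p 0.920). Of the 6 pseudopregnant libraries 4 exceeded the virgin median, and the groups overlapped. The value was 0.40 without pseudopregnant replicate 5 and 0.42 without virgin replicate 2.

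Egfr also moved with a property of whole libraries, and what that property reflects was not tested. For each library a length slope was taken, from regressing the deviations in log2 CPM on log2 exon length. This used 6282 genes averaging at least 20 CPM, Egfr not among them. The slope ran from -0.24 to 0.08 in virgin libraries, -0.23 to 0.16 in pregnant and -0.16 to 0.26 in pseudopregnant ones. A higher value means relatively more reads on long genes. The 3 highest slopes were pseudopregnant (0.19 to 0.26), and no virgin library exceeded 0.08. Egfr has the longest exon length of the members, 11326 bases. Over the 18 libraries its log2 CPM followed the slope with Pearson's r of 0.91 (permutation p = 1e-05, the smallest that the permutations can give, adjusted over 10 members 1e-04) and Spearman's rho of 0.85 (permutation p = 1e-05, adjusted 1e-04). Within groups r was 0.98 in virgin libraries, 0.75 in pregnant and 0.96 in pseudopregnant ones, and it was 0.85 without the 2 libraries of most extreme slope. For the other 9 members r lay between -0.44 and 0.25 and none passed. Nt5e, the member with the next longest exon length (8602 bases over all annotated transcripts), had r of 0.0009. Its longest protein-coding transcript has only 3995 bases, against 10208 for Egfr, so the 2 genes are not of like transcript length. With the slope as a covariate the Egfr fold changes were 0.15 (SE 0.11, edgeR adjusted p 0.9999) in pseudopregnant minus virgin, -0.07 in pregnant minus virgin and -0.21 in pregnant minus pseudopregnant. With that covariate 2.14% of all genes had an unadjusted p under 0.05 in pseudopregnant minus virgin, against 9.37% without it. The slope is set by how long genes shift in a library, so a long gene may follow it by construction. The share of all genes, or of long genes, that follow it as closely was not computed. The relation of Egfr to the slope was chosen after the data had been seen.

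The genes that share a pathway with Egfr gave no call either. Of the 17 other receptors, ligands and feedback genes listed, 14 were tested. At an unadjusted p under 0.05, 0 were higher and 2 lower in pregnant minus virgin (3.68% of all genes in either direction). In pseudopregnant minus virgin 2 were higher and 1 lower (9.37%), and in pregnant minus pseudopregnant there were 0 (2.35%). Their median log2 fold changes were 0.04, 0.06 and -0.10, and the lower genes were the ligands Areg, in both contrasts with virgin, and Hbegf, in pregnant minus virgin (log2 -0.41, SE 0.16). The ligand Areg had 29.8 ± 9.02 CPM in virgin libraries, 21.6 ± 6.99 in pregnant and 19.6 ± 5.68 in pseudopregnant ones (log2 fold change from virgin -0.46 and -0.60, SE 0.22 each, edgeR adjusted p 0.891 and 0.515). Hbegf had 156 ± 39.0, 118 ± 17.2 and 128 ± 24.4 CPM. The co-receptor Erbb3 had 229.5 ± 75.3, 321 ± 83.1 and 365 ± 99.6 CPM (log2 0.67 in pseudopregnant minus virgin, SE 0.23, edgeR adjusted p 0.515). Erbb3 and the inhibitor Socs3 (log2 0.82, SE 0.38) were the 2 higher genes. In pregnant minus pseudopregnant the smallest p belonged to Dusp6 (log2 0.40, SE 0.25), a phosphatase that dampens ERK, and Socs3 (-0.59, SE 0.38). The ligands Ereg and Tgfa and the inhibitors Lrig1 and Errfi1 had log2 fold changes from virgin between -0.29 and 0.27, with adjusted p from 0.515 upwards.

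The second question was how the members varied among themselves. Over the 45 pairs and 18 libraries, log2 CPM was correlated in 33 pairs at an adjusted p under 0.05 (100000 permutations, Benjamini-Hochberg over 45), 27 positively and 6 negatively. Spearman's rho passed in 34. Leaving Egfr and Gsdmc4 aside, 27 of the 28 pairs among the other 8 members passed, with r from 0.49 to 0.96, and r was above 0 in all 3 groups for all 28. Klf4 with Ifrd1 (r 0.52) did not pass in 7 of 21 alternatives and Klf4 with Pmp22 (r 0.55) in 2. The remaining pair was Klf4 with Creb3l3 (r 0.49, adjusted p 0.0525, rho 0.59, adjusted p 0.0181, permutation tests). Both genes of a pair come from the same libraries and so share their depth and scaling.

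Ada, Nt5e and Slc28a2 were the tightest trio. Pearson's r was 0.94 for Ada with Nt5e and 0.96 for Slc28a2 with each of them, each with a permutation p of 1e-05, the smallest that can be reached, and 1.125e-04 after adjustment. Spearman's rho was 0.93, 0.95 and 0.95 for Ada with Nt5e, Ada with Slc28a2 and Nt5e with Slc28a2, each with the same permutation p. Without the 2 libraries farthest from the median r was 0.94, 0.95 and 0.95, and within single groups it lay between 0.92 and 0.998. The ratio of Ada to Nt5e in CPM therefore moved only 2.61-fold and that of Ada to Slc28a2 2.18-fold between libraries in which each gene moved at least 11.04-fold.

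Ifrd1 and Pmp22 formed another close pair (r 0.88, rho 0.90, permutation p 1e-05 each, adjusted 1.125e-04, 0.86 without the 2 farthest libraries). Creb3l3 and Krt20 gave r of 0.83 (permutation p 7e-05, adjusted 5.25e-04) and rho of 0.82 (permutation p 8e-05, adjusted 6e-04), and r of 0.76 without the 2 farthest. Egfr passed with none of the other 8, with r from -0.48 to 0.19. Gsdmc4 was negative with all 8 in all 3 groups, r running from -0.44 to -0.78, and 6 of the 8 passed. The exceptions were Nt5e and Slc28a2, and within pregnant libraries r with the 3 purine genes was only -0.18 to -0.14. Ada (r -0.60) and Ifrd1 (r -0.59) no longer passed with Gsdmc4 without virgin replicate 3, and Ada also not without virgin replicate 6, where r was -0.51 to -0.49. Its most negative partners were Creb3l3 (r -0.78, rho -0.77, adjusted permutation p 7e-04 and 0.00154) and Krt20 (r -0.77, rho -0.82, adjusted permutation p 7e-04 and 0.00109).

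**Figure D3:**
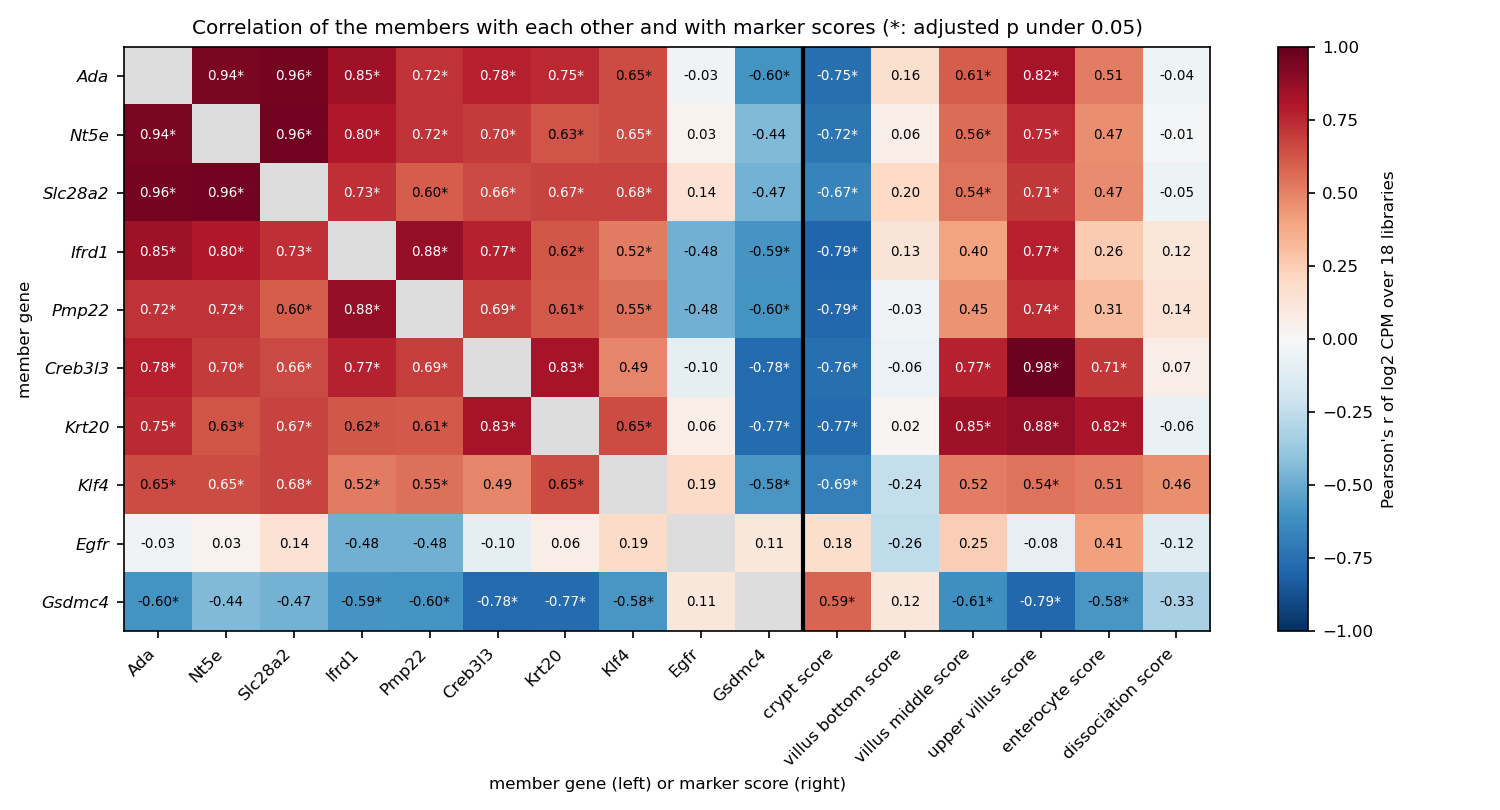
Pearson's r of log2 CPM over 18 libraries between members (left of the line) and between members and marker scores (right), red positive and blue negative, with stars where the adjusted permutation p is under 0.05. The 8 members listed first form a red block, Egfr has no starred partner, and Gsdmc4 is blue with the 8 and red only with the crypt score among the starred cells.

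The third question was whether the members varied with the place along the crypt and villus that other genes report. Scores were the mean log2 deviation of marker lists that hold no member: 16 genes of dividing and stem cells for the crypt, 8 antimicrobial genes for the villus base, 10 carriers for the middle and 8 lipid genes for the upper villus. A list of 15 brush-border enzymes and 1 of 15 immediate early and heat shock genes, known to respond to cell dissociation, were added. Of the 60 relations 27 passed after adjustment over all 60 (permutation tests). With the crypt score 9 members passed, 8 of them negative and Gsdmc4 positive. With the upper villus score 9 passed, 8 positive and Gsdmc4 negative. With the middle score 6 passed and with the enterocyte score 3, and with the villus base and dissociation scores none, r lying between -0.26 and 0.20 and between -0.33 and 0.46. Of the 6 with the middle score only Krt20 (r 0.85) and Creb3l3 (0.77) passed in all 21 alternatives. Slc28a2 (0.54) was lost in 12, Nt5e (0.56) in 10, and Ada (0.61) and Gsdmc4 (-0.61) in 2 each. Gsdmc4 with the enterocyte score (r -0.58) was lost in 3, without virgin replicate 3, virgin replicate 6 or pregnant replicate 3.

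Creb3l3 followed the upper villus score most closely, with r of 0.98 (permutation p 1e-05, adjusted 3e-04) and rho of 0.95 (permutation p 1e-05, adjusted 2e-04), r between 0.95 and 0.99 within groups and 0.97 without the 2 farthest libraries. That score contains Apoa4, Apoa1 and other lipid genes, and Apoa4 is a known target of Creb3l3. The next were Krt20 (r 0.88, rho 0.87), Ada (r 0.82, rho 0.83), Ifrd1 (r 0.77, rho 0.74), Nt5e (r 0.75, rho 0.80), Pmp22 (r 0.74, rho 0.82) and Slc28a2 (r 0.71, rho 0.72), with adjusted permutation p of 0.00402 or less for r. Klf4 gave r of 0.54 (adjusted permutation p 0.0453) and rho of 0.65 (adjusted 0.0146), and its r was 0.47 without the 2 farthest libraries. It no longer passed after leaving out any single one of 13 libraries (r 0.46 to 0.54). Gsdmc4 gave r of -0.79 and rho of -0.78 (adjusted permutation p 0.001125 and 0.00133), with r of -0.93, -0.66 and -0.77 in virgin, pregnant and pseudopregnant libraries and -0.67 without the 2 farthest. Whether r differed between members was not tested.

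With the crypt score, Ifrd1 (r -0.79), Pmp22 (-0.79), Krt20 (-0.77), Creb3l3 (-0.76), Ada (-0.75), Nt5e (-0.72), Klf4 (-0.69) and Slc28a2 (-0.67) were all negative within every group. For Krt20 the rank correlation did not pass (rho -0.53, adjusted permutation p 0.0582). The positive r of Gsdmc4 (0.59, adjusted permutation p 0.0268) came with a rho of 0.48 that did not pass (adjusted p 0.0869), and r was 0.35 without the 2 libraries of most extreme crypt score. It was also lost without virgin replicate 3, pregnant replicate 3 or pseudopregnant replicate 5 (r 0.48 to 0.54). Egfr gave 0.18 with the crypt and -0.08 with the upper villus score. By these scores neither Egfr nor Gsdmc4 varied as the other members did, although both were chosen as villus tip genes.

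The upper villus score itself overlapped between the groups: its lowest, median and highest were -0.79, -0.21 and 0.85 in virgin libraries, -0.40, 0.13 and 0.69 in pregnant and -0.46, -0.20 and 0.50 in pseudopregnant ones. Of its 8 genes none was called. In each contrast with virgin 1 was higher at an unadjusted p under 0.05, a level that 3.68% and 9.37% of all genes reached in either direction. These were Npc1l1 in pregnant (log2 0.50) and Apob in pseudopregnant mice (log2 0.83). The middle villus list was above 0 in all 10 genes in each of the 3 contrasts, with medians of 0.44 in pregnant minus virgin, 0.13 in pseudopregnant minus virgin and 0.19 in pregnant minus pseudopregnant. The brush-border list was above 0 in 14, 13 and 13 of 15 genes (medians 0.44, 0.22 and 0.15), and the crypt list in 2, 10 and 3 of 16 (medians -0.18, 0.07 and -0.18). Genes higher at an unadjusted p under 0.05 in pregnant minus virgin numbered 2 of the middle list and 4 of the brush-border list, and no gene of these lists was called. The genes of a list share libraries and do not count as independent. With a villus-minus-crypt score (enterocyte minus crypt list) as a covariate in the edgeR fit, no member passed either, and 7 of the 30 member fold changes changed sign. Krt20, for instance, went from 0.17 to -0.03 in pregnant minus virgin, and Creb3l3 from 0.07 to -0.17.

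**Figure D4:**
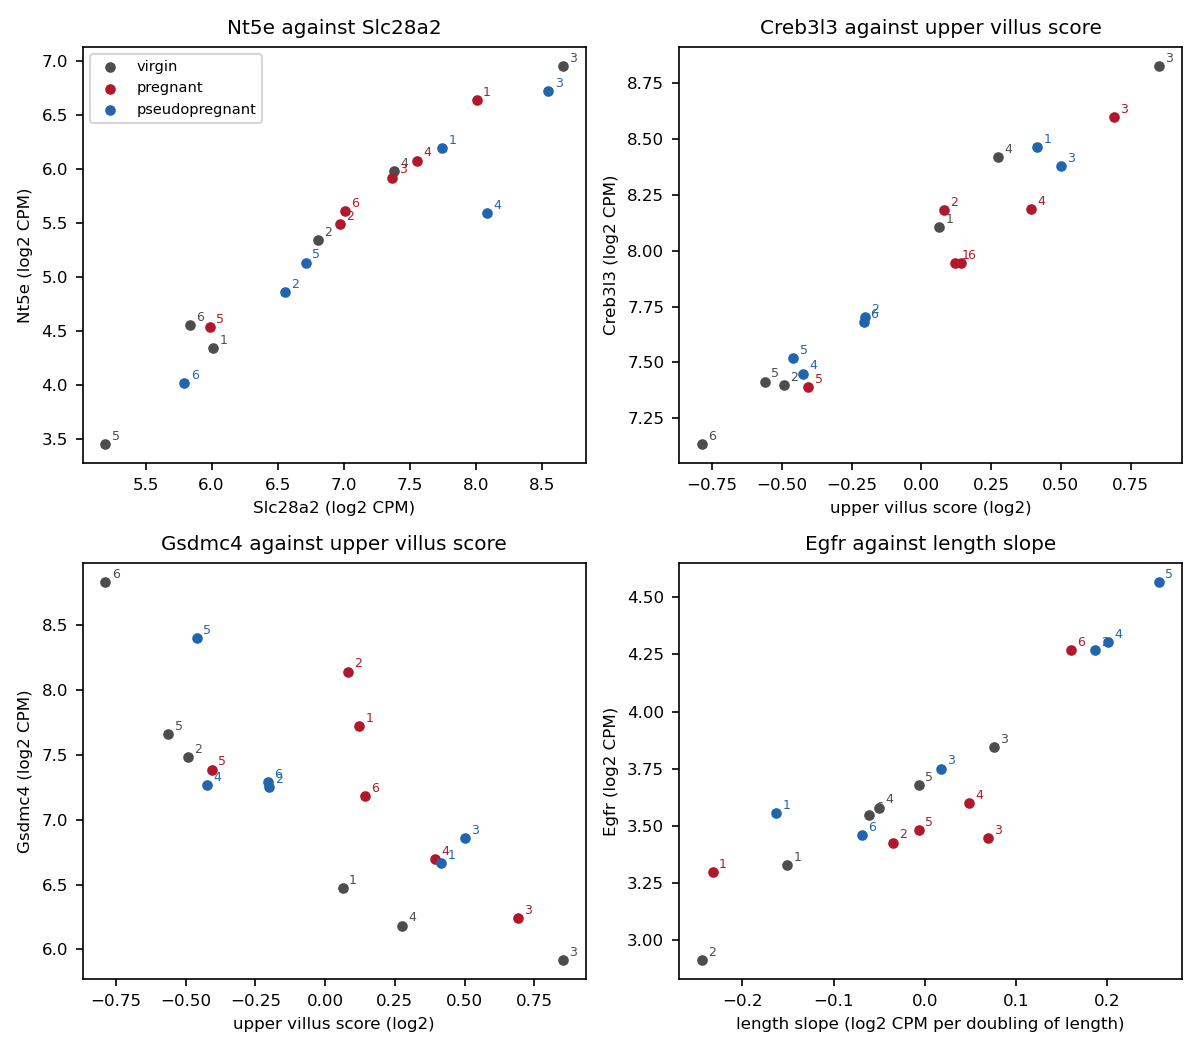
Relations of 4 kinds over the 18 libraries, points coloured by group and labelled by replicate: Nt5e against Slc28a2, Creb3l3 and Gsdmc4 against the upper villus score, and Egfr against the length slope (log2 axes). The points follow lines of r 0.96, 0.98, -0.79 and 0.91, and the groups are mixed except along the length slope, where the 3 highest libraries are pseudopregnant.

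Other genes of purine handling were examined beside the trio. Of 22 listed, 20 were tested, Entpd1 was under the filter and Pnp had no row of that symbol. None was called by edgeR in any contrast. At an unadjusted p under 0.05 there were 0 in pregnant minus virgin (3.68% of all genes in either direction). There were 3 higher in pseudopregnant minus virgin (9.37%) and 2 lower in pregnant minus pseudopregnant (2.35%). Their median log2 fold changes were 0.06, 0.18 and 0.10. The higher ones were Enpp1 (log2 0.46), Slc28a3 and Slc29a3 (0.63) and the lower ones Enpp1 (-0.33) and Slc28a3 (-0.66). In pregnant minus virgin the smallest p belonged to the alkaline phosphatase Alpi (log2 0.44, SE 0.23) and the guanine deaminase Gda (0.44, SE 0.25). The nucleoside carrier Slc28a3 had 15.1 ± 4.19 CPM in virgin libraries, 14.4 ± 2.66 in pregnant and 22.8 ± 9.25 in pseudopregnant ones (log2 0.59 in pseudopregnant minus virgin, SE 0.24, edgeR adjusted p 0.515). Slc28a1 had 44.1 ± 13.3, 37.1 ± 13.2 and 31.1 ± 9.12 CPM in the same order. The phosphodiesterase Enpp3, itself a tip gene, had 33.6 ± 26.03, 42.4 ± 13.5 and 39.4 ± 17.4 CPM. Enpp3 varied with Ada (r 0.89, rho 0.87), Nt5e (0.87, 0.88) and Slc28a2 (0.89, 0.89) at adjusted permutation p of 2e-05 or less, in a family of 8 relations chosen after the data were seen. The adenosine receptor Adora2b had 5.04 ± 2.48, 5.58 ± 2.47 and 3.90 ± 1.85 CPM, and the brush-border enzyme Dpp4 453 ± 128, 644 ± 242 and 624 ± 107.

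Part of the Slc28a2 reads may belong to a copy. Of its 75-base transcript windows 27.7% recur in Gm14085, whose CPM was 0.225 to 0.271 of that of Slc28a2 in every library and followed it with r of 0.997 (rho 0.99, adjusted permutation p 1.14e-05 and 1.6e-05). In Gsdmc4 28.5% of windows recur in Gsdmc3, Gsdmc2 or Gsdmc, its neighbours in a cluster of near-identical genes. Gsdmc2 (97.1 ± 86.2, 94.5 ± 39.97 and 100.7 ± 55.4 CPM in virgin, pregnant and pseudopregnant libraries) and Gsdmc3 (51.3 ± 46.0, 53.7 ± 23.2 and 53.6 ± 30.2) followed Gsdmc4 with r of 0.98 each (rho 0.95 and 0.97), and Gsdmc with r of 0.87 (rho 0.87), all at adjusted permutation p of 2e-05 or less. How far shared reads set these values was not tested. The other 8 members share no such window with another gene. Gsdmd (268 ± 70.1, 286 ± 73.0 and 280.3 ± 79.5 CPM) and Gsdme, gasdermins outside that cluster, had log2 fold changes between -0.11 and 0.19. Gsdmc differed by 0.21 in pregnant minus virgin, -0.20 in pseudopregnant minus virgin and 0.41 in pregnant minus pseudopregnant (SE 0.47 each). None of the 6 other gasdermins tested reached an unadjusted p under 0.05.

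The relatives of the regulators and structural members were likewise without a call. Over all genes 3.68%, 9.37% and 2.35% had an unadjusted p under 0.05 in pregnant minus virgin, pseudopregnant minus virgin and pregnant minus pseudopregnant. Among the 10 other Kruppel-like factors, 1 was higher and 1 lower at that level in each contrast with virgin and none in pregnant minus pseudopregnant. Klf3 was the higher one in pregnant (log2 0.29, SE 0.14) and Klf13 in pseudopregnant mice (0.21, SE 0.10). Klf2 was the lower one both times, at 22.3 ± 9.60 CPM in virgin libraries, 12.9 ± 2.24 in pregnant and 13.5 ± 2.18 in pseudopregnant ones (log2 -0.79 and -0.72, SE 0.21 each, edgeR adjusted p 0.891 and 0.515). Klf5, a factor of dividing crypt cells, had 179.5 ± 27.9, 183 ± 37.7 and 218 ± 68.3 CPM. Klf15 (log2 0.42, SE 0.24) and Klf5 (-0.25, SE 0.18) had the smallest p in pregnant minus pseudopregnant. All 5 other simple-epithelium keratins had values below 0 in both contrasts with virgin (median -0.40 and -0.42 on the log2 scale), where Krt20 had values above 0, and 1 of the 5 reached an unadjusted p under 0.05 in each. These were Krt7 in pregnant minus virgin (log2 -0.44, SE 0.18, adjusted p 0.891) and Krt18 in pseudopregnant minus virgin (log2 -0.42, SE 0.19, adjusted p 0.515). Krt18 in pregnant minus virgin (-0.40) and Krt23 in pseudopregnant minus virgin (-0.50, SE 0.25) came next, and in pregnant minus pseudopregnant Krt19 (0.23) and Krt7 (-0.12) had the smallest p. Krt8 had 5889.9 ± 1121, 5185 ± 886 and 4816 ± 1307 CPM. The difference between Krt20 and its relatives was not tested. Other lists moved alongside: all 15 dissociation genes were below 0 in both contrasts with virgin (medians -0.20 and -0.19, with 4 and 2 at an unadjusted p under 0.05), and goblet cell markers were below 0 in 8 of 8 genes in pregnant minus virgin (median -0.34) and 6 of 8 in pseudopregnant minus virgin (median -0.29). Their part in the values of the keratins, Klf2, Areg and Hbegf was not tested.

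Apoa4 had 2923 ± 2160 CPM in virgin libraries, 2768 ± 967 in pregnant and 2076 ± 1391 in pseudopregnant ones and followed Creb3l3 with r of 0.90 (rho 0.85, adjusted permutation p 1.14e-05 and 2e-05). Of the 9 listed targets and relatives of Creb3l3, 6 were tested and none reached an unadjusted p under 0.05. The smallest p belonged to Creb3l2 (log2 0.26) and Creb3l4 (-0.22) in pregnant minus virgin, to Apoa4 (-0.49, SE 0.47) and Creb3l2 (0.23) in pseudopregnant minus virgin and to Creb3l1 (-0.20) and Cidec (0.29) in pregnant minus pseudopregnant. Emp1, of the family of Pmp22, had 274 ± 51.6, 304 ± 73.4 and 265 ± 84.9 CPM. Its log2 fold changes were 0.15, -0.04 and 0.20 in the 3 contrasts, and those of Emp2 0.18, -0.12 and 0.30. Ifrd2, the paralog of Ifrd1, had 38.4 ± 7.28, 35.6 ± 5.64 and 37.1 ± 6.26. The BMP pathway is active towards the villus tip, and 14 of its genes were tested. At an unadjusted p under 0.05, 0 were higher and 1 lower in pregnant minus virgin (3.68% of all genes in either direction). In pseudopregnant minus virgin 2 were higher and 1 lower (9.37%), and in pregnant minus pseudopregnant 1 was higher (2.35%). The higher ones were Bmpr2 (log2 0.45) and Smad5 (0.27) in pseudopregnant minus virgin and Bmp2 (0.64) in the last contrast, Bmpr2 having 0.27 and -0.18 in the other two, and the median log2 fold changes were 0.17, 0.12 and 0.02. Slc29a3, Smad5, Apob and Klf13 were named after their values had been seen. The lower one was Id4, at 3.41 ± 1.40, 1.79 ± 0.434 and 1.61 ± 0.482 CPM (log2 from virgin -0.92 and -1.09, edgeR adjusted p 0.891 and 0.515), while the BMP target Id1 stood at 251 ± 48.0, 213 ± 53.7 and 205 ± 100.1 CPM.

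Of 5 other genes known at the tip, Enpp3, the AP-1 factors Fos, Jun and Junb and the cadherin Cdh1, none reached an unadjusted p under 0.05, with medians of -0.0039, -0.05 and 0.06. Fos differed by -0.14 (SE 0.12) in both contrasts with virgin. The AP-1 factors are also on the dissociation list. Cdh1 differed by 0.14 (SE 0.10) in pregnant minus virgin and 0.06 in pregnant minus pseudopregnant, and Junb by -0.19 (SE 0.20) in pseudopregnant minus virgin and 0.16 in pregnant minus pseudopregnant.

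The genes whose levels were most like each member's were ranked by Spearman's rho over the 18 libraries among 9110 genes with a mean of at least 5 CPM, as a description with no test. For Ada they were Cldn4 (0.96), Slc23a4 (0.94) and Ltb4r2 (0.94), for Nt5e Bmp8a (0.95), Cldn4 (0.93) and Gprc5a (0.93), and for Slc28a2 Bmp8a (0.95), Slc23a4 (0.95) and Ap5z1 (0.91). Cldn4 is a tight-junction protein, Bmp8a a BMP ligand and Ltb4r2 a leukotriene receptor. Mad2l1bp (0.99), Rhod (0.96) and Dnpep (0.95) were nearest to Ifrd1, and Ceacam18 (0.97), Espn (0.95) and Tubb2a (0.95) to Pmp22. Igsf23 (0.94), Acot12 (0.93) and Cyp3a13 (0.91) were nearest to Creb3l3, Cdc42se2 (0.92), Cyp2d22 (0.91) and Apol7a (0.90) to Krt20, and Asap1 (0.90) and Rhof (0.87) led those of Klf4. The genes nearest to Egfr were Dhx57 (0.94), Mef2a (0.92) and Ddx3x (0.92), and those nearest to Gsdmc4 its cluster neighbours Gsdmc3 (0.97), Gsdmc2 (0.95) and Gsdmc (0.87).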

How the data were processed

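RNA was sequenced from sorted ileal epithelium in 18 libraries, 6 per mating group, with poly(A) enrichment and a directional library kit per the labels' protocols. The authors deposited 1 table per library with read counts for Ensembl genes, not normalized. Per the submitters' processing notes, the build was GRCm38 and the tools included HISAT2 2.0.4, DESeq2 1.24.0, FastQC 0.11.5, Subread 2.0.0 and featureCounts. The strand setting and annotation release of the counting were not given in the sources used here. GENCODE M21 (GRCm38) gave names, positions and exon lengths for 47310 of the 47729 genes, and the other 419 took up to 0.029% of the counts of a library. Each library was counted as 1 sample. Every pair of replicates in a group differed beyond sampling noise (a chi-square of 32.5 or more for each degree of freedom). This cannot show whether they came from separate animals.

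Groups and replicate numbers came from the sample titles. The filterByExpr function of edgeR left 14675 genes. After TMM scaling, all 18 libraries entered a single quasi-likelihood fit of edgeR 4.0.16 under R 4.3.3, in which each group had its own mean. The 3 contrasts and the difference among groups were tested two-sided, adjusted by Benjamini-Hochberg over all genes at 0.05. DESeq2 1.42.0, limma-voom (3.58.1), other filters and scaling, covariates, a replicate block and leaving out each library were the alternatives. The fit was run on simulated counts drawn independently for each gene, which hold none of the variation that genes share across libraries. Correlations used log2 CPM (prior count 2) and 100000 permutations. Sequences came from RefSeq promoters of GRCm38.p6, and shared reads were gauged by 75-base windows of the M21 transcripts.

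The members, gene lists and rules were chosen with earlier results of these data known. Named with values were all 10 members, their paralogs and direct partners, the 2 genes of smallest p in each list and contrast and the 3 genes nearest to each member, of which 1 is not reported here. Gm14085 was added after the data were seen.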

Additional observations from a re-analysis of the deposited data

Results flagged for a closer look

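Within the groups of 6, 30 sets of values (10 members in 3 groups) were screened for a single library far from the rest. Egfr in pregnant replicate 6 stood at 19.21 CPM and the other 5 pregnant libraries at 9.77 to 12.05 CPM. The screen used the log2 scale, on which the gap below this library took up 0.690 of the group's range. That library also had the highest length slope of the pregnant group, 0.16, and without it the Egfr fold change in pregnant minus virgin was -0.06 in place of 0.12 on the log2 scale. Gsdmc4 in pseudopregnant replicate 5 stood at 337.3 CPM, the others of that group at 101.5 to 156.5 CPM, a gap of 0.639 of the log2 range. Without it the Gsdmc4 fold change in pseudopregnant minus virgin was -0.38 in place of -0.06. The same library had the highest Egfr of all 18, 23.6 CPM. Chance gives such a flag in about 1 group of 20.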

How the results depend on the processing

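No member passed the adjusted threshold in any of 27 alternatives, where the lowest adjusted p of a member was 0.171. Of the 30 member fold changes, all far from the threshold, 11 kept their sign throughout and 19 did not. With a villus-minus-crypt covariate the changed log2 values were, in pregnant minus virgin, Creb3l3 -0.17, Gsdmc4 0.42, Klf4 -0.20 and Krt20 -0.029, in pseudopregnant minus virgin Gsdmc4 0.27, and in pregnant minus pseudopregnant Gsdmc4 0.15 and Krt20 -0.10. With the length slope they were Egfr -0.067, Ifrd1 0.023 and Klf4 -0.0063 in pregnant minus virgin, Pmp22 0.071 in pseudopregnant minus virgin and Gsdmc4 0.0049 in pregnant minus pseudopregnant, and 0 members had an unadjusted p under 0.05 in pseudopregnant minus virgin (2.14% of all genes). With limma-voom they were Gsdmc4 0.15 and Ifrd1 0.049 in pregnant minus virgin and Gsdmc4 0.19 in pseudopregnant minus virgin. With the replicate number as a block they were Gsdmc4 0.14 and Ifrd1 0.016 in pregnant minus virgin and Gsdmc4 0.20 in pseudopregnant minus virgin, and 1 member had an unadjusted p under 0.05 in pregnant minus virgin (6.67% of all genes), Ada at 0.67 (SE 0.31). Nt5e was 0.55 and Slc28a2 0.50 in that contrast. Without a change of sign, 13 of the 30 fold changes moved by over 1.5 times with limma-voom, 11 with the block, 12 with the villus-minus-crypt covariate and 4 with the length slope. Whether the numbers pair the samples was not settled, and the labels do not say what they stand for. Same-numbered libraries deviated together (r over 0.1) in 3, 4 and 3 of 6 pairs, and 1, 2 and 3 of 6 correlated best with their own number. The median r was 0.18, 0.13 and 0.19 for the same number and -0.06, -0.05 and -0.02 for other numbers. Replicate 3 had the lowest crypt score of its group in all 3 groups. With the block the SE in pregnant minus virgin went from 0.60 to 0.31 for Ada, from 0.52 to 0.33 for Slc28a2 and from 0.21 to 0.13 for Krt20. It fell for every member but Egfr (0.210 without and 0.211 with the block). Scaling by DESeq2 size factors, DESeq2 itself, other filters and a fit of only the 12 libraries compared changed no sign. Leaving out 1 library gave, in pregnant minus virgin, Ada -0.062 to 1.06, Slc28a2 -0.067 to 0.82, Creb3l3 -0.058 to 0.31, Egfr -0.058 to 0.19, Gsdmc4 -0.33 to 0.44, Ifrd1 -0.16 to 0.27 and Klf4 -0.13 to 0.15. In pseudopregnant minus virgin it gave Ada -0.33 to 1.01, Nt5e -0.22 to 0.70, Creb3l3 -0.24 to 0.15, Gsdmc4 -0.38 to 0.49 and Pmp22 -0.45 to 0.13. In pregnant minus pseudopregnant it gave Ada -0.19 to 0.52, Nt5e -0.055 to 0.51, Slc28a2 -0.46 to 0.064, Gsdmc4 -0.27 to 0.27, Klf4 -0.26 to 0.022 and Krt20 -0.086 to 0.12. Virgin replicate 3 gave the upper end in all of these contrasts with virgin except Gsdmc4 (virgin replicate 6) and Klf4 (pregnant replicate 2). Members at an unadjusted p under 0.05 numbered 0 to 2 in pseudopregnant minus virgin (0 without virgin replicate 2 or pseudopregnant replicate 5, where 4.76% and 3.66% of all genes reached it, and 2 without virgin replicate 3, where 17.5% did) and 0 to 2 in pregnant minus pseudopregnant (2 without pseudopregnant replicate 1, with 10.6% of all genes, and 1 without pregnant replicate 6 or pseudopregnant replicate 3 or 6, with 6.79%, 5.20% and 3.87%). The cause of these changes was not tested. Of 33 correlated pairs 29 held in every alternative, the others being Ada and Ifrd1 with Gsdmc4 and Klf4 with Ifrd1 and Pmp22. Of 27 relations with scores 20 held. The members' median SE of 0.34 was above the 0.20 of all genes although no member had fewer than 189 reads in any library (Egfr).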

Other observations

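The ratio of Nt5e to Slc28a2 in CPM was 0.369 ± 0.0121 in pregnant libraries (SD, n = 6), with a range of 0.358 to 0.388, and 0.289 ± 0.0592 in pseudopregnant libraries, with a range of 0.178 to 0.342, so the groups did not overlap. In virgin libraries it was 0.344 ± 0.0455, from 0.297 to 0.410. Of 9 exact two-sided permutation tests (3 ratios among Ada, Nt5e and Slc28a2 in 3 contrasts, chosen after the data had been seen), this was the only one past the threshold, with an exact p of 0.00216, the smallest that 6 against 6 can give, and 0.0195 after adjustment over the 9. That adjustment does not cover the choice of these 3 ratios, and ratios of other member pairs were not tested. The share of all gene pairs whose ratios separate the groups in this way was not computed. With the reads of the near copy Gm14085 added to those of Slc28a2 the ratios were 0.297 ± 0.00857 and 0.231 ± 0.0476, with the same exact p. The ratio of Ada to Slc28a2 was 2.41 ± 0.369 in pregnant and 1.84 ± 0.390 in pseudopregnant libraries (exact permutation p 0.0281, adjusted 0.127). The values of neither gene alone passed in this contrast, with log2 fold changes of 0.17 (SE 0.50) for Nt5e and -0.26 (SE 0.52) for Slc28a2.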
